A study of Mus musculus with 8 samples.

Results

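The mitochondrial ribosomal protein genes were taken as every probe whose platform-annotation symbol begins with Mrpl or Mrps followed by a number, which gave 107 of the 32684 probes of the array and 78 of its 21363 named genes. Symbols in Mrpl (large subunit) covered 67 probes of 49 genes, and symbols in Mrps (small subunit) covered 40 probes of 29 genes. Within this rule membership used the symbol and no measured value, but the gene family was chosen with earlier results of these data known. Total RNA came from the microdissected subventricular zone, the stem cell niche along the lateral ventricle, of female mice aged 7 months: 4 samples were 3xTg and 4 were wild type (WT). Both genotypes carried the label of a cross of C57BL/6J females with 129S1/SvImJ males. The 3xTg line is an Alzheimer's disease model whose alterations include mutant human APP and MAPT transgenes under Thy1 control, which acts mainly in neurons, so the transgenes are not specific to the cells of this niche. How many mice each sample holds is not stated. The 3xTg and WT samples of a replicate number shared 1 array, and the sample labels give Cy5 for 3xTg and Cy3 for WT on all 4 arrays, although the labelling protocol names Cy3 primers alone. Every difference below is therefore a log2 intensity of 3xTg minus WT within an array, in which genotype and dye cannot be told apart.

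The mitochondrial ribosome makes the few proteins that mitochondrial DNA encodes, all of them subunits of the respiratory chain and ATP synthase. Its RNA comes from mitochondrial DNA, whereas its proteins are encoded in the nucleus, made in the cytoplasm and imported. The small subunit holds the decoding centre, where the messenger is read, and the large subunit holds the peptidyl transferase centre and the exit tunnel. Many of its proteins have bacterial counterparts and others are found in mitochondria only. A symbol does not always name the place of a protein: in mammalian structures Mrps18a and Mrps30 lie in the large subunit, and Mrps36 is now known as a part of the 2-oxoglutarate dehydrogenase complex. The 78 genes lay on many chromosomes, with 11 on chromosome 11 and 8 on chromosome 17.

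Promoter windows from RefSeq (GRCm38.p6, 250 bases before to 50 after the annotated start) were found for 69 of the 78 genes, 75 windows in all. The next lines show the windows of the member that passed the test (Mrps27), of the large subunit gene with the smallest p among those lower (Mrpl33), and of the large subunit genes with the smallest p among those higher (Mrpl39 and Mrpl44). Capitals mark matches on either strand to CCGGAAG (an ETS-type motif, the kind bound by GABP), the NRF1 palindrome (GCGC, any pair of bases, GCGC) and AAGATGGC (YY1), factors known to regulate nuclear genes for mitochondrial proteins.
Mrps27 (chr13:99344536-99344835, plus strand): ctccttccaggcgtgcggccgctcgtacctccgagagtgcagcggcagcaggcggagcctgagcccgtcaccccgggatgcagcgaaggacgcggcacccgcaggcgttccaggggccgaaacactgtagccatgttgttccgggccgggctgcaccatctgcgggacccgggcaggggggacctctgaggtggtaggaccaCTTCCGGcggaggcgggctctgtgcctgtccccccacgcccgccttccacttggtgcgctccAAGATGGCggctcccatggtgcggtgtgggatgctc
Mrpl33 (chr5:31613701-31614000, plus strand): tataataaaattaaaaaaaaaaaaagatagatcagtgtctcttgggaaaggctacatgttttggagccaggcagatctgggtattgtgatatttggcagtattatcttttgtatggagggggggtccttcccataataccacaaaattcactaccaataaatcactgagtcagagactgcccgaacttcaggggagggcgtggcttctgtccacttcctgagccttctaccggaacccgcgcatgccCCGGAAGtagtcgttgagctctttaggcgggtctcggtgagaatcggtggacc
Mrpl39 (chr16:84735195-84735494, minus strand): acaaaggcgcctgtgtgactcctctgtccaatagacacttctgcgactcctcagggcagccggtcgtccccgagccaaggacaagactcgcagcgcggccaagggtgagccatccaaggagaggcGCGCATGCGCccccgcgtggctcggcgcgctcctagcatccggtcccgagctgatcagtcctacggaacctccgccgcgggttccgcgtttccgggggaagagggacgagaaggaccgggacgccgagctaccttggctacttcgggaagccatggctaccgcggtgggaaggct
Mrpl44 (chr1:79775768-79776067, plus strand): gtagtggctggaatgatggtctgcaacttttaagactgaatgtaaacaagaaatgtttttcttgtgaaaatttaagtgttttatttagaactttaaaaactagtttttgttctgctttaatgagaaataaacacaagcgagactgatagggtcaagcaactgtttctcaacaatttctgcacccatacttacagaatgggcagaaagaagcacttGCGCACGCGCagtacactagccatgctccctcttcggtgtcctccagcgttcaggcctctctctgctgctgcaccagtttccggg
The Mrps27 window held 1 ETS-type and 1 YY1 match, that of Mrpl33 held 1 ETS-type match, and those of Mrpl39 and Mrpl44 held 1 NRF1 match each. Over all windows of members, the ETS-type motif was present in 34.7% (26 of 75), against 8.86% of all 32851 promoter windows. The NRF1 palindrome was present in 18.7% of member windows and 6.23% of all, and the YY1 motif in 16.0% and 2.75%. A TATAAA match was present in 6.67% of member windows and 13.6% of all windows. These matches describe the letters of the windows and no binding was measured. The shares were not compared with windows of similar CG content, so they are not shown to be particular to these genes.

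The values are the authors' normalized log2 intensities, 1 per probe and sample, with sample medians between 10.12 and 10.15. Correlations over all probes lay between 0.920 and 0.979 within a genotype. No member had a value at a sample's highest intensity (15.98 to 16.00, near the limit of the scanner), and member values ranged from 7.50 to 14.89. Detection above background could not be assessed. A probe's brightness depends on its sequence, so levels are given per probe and not compared between genes. As levels whose distance from background is not known, 10 genes of transit-amplifying cells and neuroblasts averaged 12.14 to 12.56 across the 8 samples, and 10 ependymal genes averaged 10.11 to 11.08. Striatal projection neuron markers (11 genes) averaged 12.35 to 14.28 in 3xTg and 14.02 to 14.57 in WT, the widest spread of these lists; striatum borders the niche.

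Small subunit genes lay slightly lower in 3xTg, while large subunit genes centred near 0. With each gene at its brightest probe, 21 of 29 small subunit genes lay below 0 and their median difference was -0.19 (quartiles -0.28 and 0.06). Of 49 large subunit genes 27 lay below 0, with a median of -0.02 (quartiles -0.18 and 0.05). The median over all 21363 named genes was 0.01, and 47.4% of them lay below 0. Counted over probes, 60 of 107 lay below 0 (56.1%, against 47.8% of all probes), 26 of 40 in the small and 34 of 67 in the large subunit. Since the members were chosen with earlier results of these data known, these medians are descriptions with no test, and the difference between the subunits was not tested. In bulk tissue, fewer cells that express a gene and less RNA per cell cannot be told apart.

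**Figure D1:**
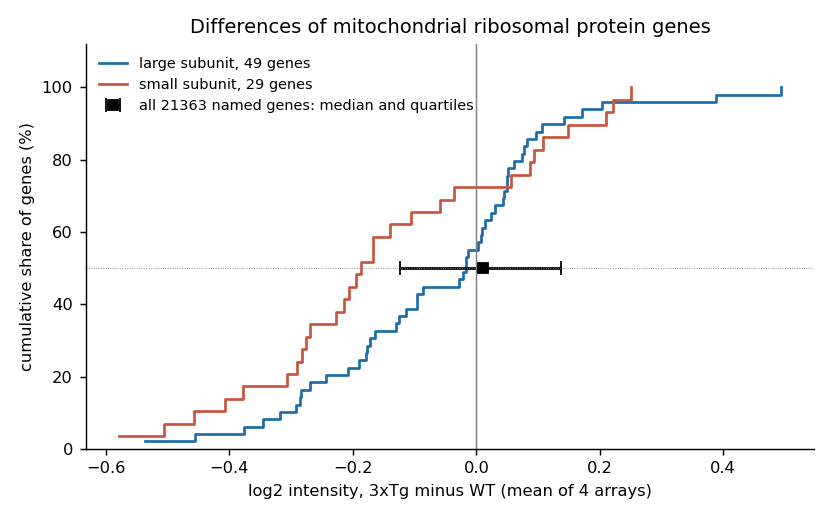
Cumulative share of genes (percent, vertical axis) by their log2 difference, 3xTg minus WT, averaged over 4 arrays (horizontal axis), for 49 large and 29 small subunit genes at the brightest probe. The square and bar give the median (0.01) and quartiles of all 21363 named genes; the small subunit line lies to the left of the large subunit line over its lower range and crosses 50% at -0.19, against -0.02 for the large subunit.

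Single genes were tested with limma across all probes, with Benjamini-Hochberg adjustment over all 32684 and a threshold of 0.05. Of the 107 member probes 1 passed, for Mrps27, where 1.22% of all probes passed (0.603% as lower and 0.621% as higher). That share, 0.935%, is close to the background, so the number of calls sets the members apart in neither direction. Across the whole array the smallest difference that passed was 0.52 in size, and 2 member probes reached it. The standard error (SE) of the members' differences lay between 0.09 and 0.18, with a median of 0.11. In simulated data with the same number of arrays and 200 changed probes, the fit recovered 6.15% of probes changed by 0.5 and 83.1% of those changed by 1. Most changes of 0.5 were thus missed in that setting. The simulation gave 137 calls, against 400 in these data, and the adjusted threshold depends on that number, so recovery here may differ.

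At an unadjusted p under 0.05, without regard to the adjustment, 17 member probes were lower and 4 were higher, where 9.34% and 8.67% of all probes were. That is 15.9% and 3.74% of the member probes. For the small subunit it was 9 of 40 lower and 1 higher, and for the large subunit 8 of 67 lower and 3 higher. Lower on all 4 arrays were 29 member probes (27.1%, against 12.0% of all probes), 16 of them small subunit and 13 large subunit. Higher on all 4 arrays were 6 member probes (5.61%, against 13.4% of all). The 3xTg and WT samples did not overlap at 10 member probes with 3xTg lower (9.35%, against 2.51% of all) and at 1 with 3xTg higher (0.935%, against 2.02%). The lean to the lower side was not particular to the members. At the brightest probe, 23 of 78 member genes were lower and 3 higher on all 4 arrays. For cytoplasmic ribosomal protein genes it was 32 of 79 lower and 4 higher, and for oxidative phosphorylation genes 10 of 85 and 2. At an unadjusted p under 0.05 (limma), 15 member genes and 18 cytoplasmic ribosomal protein genes were lower, and 3 and 1 higher. Probes of 1 gene and genes measured in the same samples are not independent, so these shares and counts carry no p-value.

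Among small subunit genes, Mrps27 encodes a pentatricopeptide repeat protein found in mitochondrial ribosomes only. Its probe (A_52_P615312) measured 10.44, 10.41, 10.86 and 10.46 in 3xTg replicates 1 to 4 and 10.97, 10.88, 11.48 and 11.16 in the WT samples on the same arrays. All 3xTg samples lay below all WT samples, although 3xTg replicate 3 came within 0.02 of the lowest WT value. Mrps27 fell by 0.58 ± 0.09 on the log2 scale (SE, 4 arrays; 1.49-fold lower, limma adjusted p = 0.0394). The mean was 10.54 ± 0.21 in the 3xTg group and 11.12 ± 0.26 in the WT group (SD over 4 samples). The call rested on all 4 arrays: with any 1 left out the difference was -0.61 to -0.54 and the adjusted p 0.0648 to 0.297. It was also lost without the array in the fit (adjusted p = 0.478) and after quantile normalization (adjusted p = 0.0513).

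The small subunit genes next in order have counterparts in the bacterial ribosome, except Mrps33. Mrps12, a protein of the decoding centre, measured 11.34, 11.36, 11.26 and 11.37 in 3xTg and 11.54, 11.86, 12.10 and 11.85 in WT. The 3xTg values were close together (SD 0.05) and all below WT, whose samples spread more (SD 0.23). The difference of Mrps12 was -0.51 ± 0.12 (SE) and did not pass (limma adjusted p = 0.102). Mrps9 measured 10.81, 10.78, 10.61 and 11.21 in 3xTg and 11.14, 11.17, 11.29 and 11.43 in WT, and 3xTg replicate 4 lay above 2 of the WT samples. Its difference was -0.41 ± 0.11 (SE, limma adjusted p = 0.124). For Mrps33 the probe A_52_P342896 differed by -0.42 ± 0.12 (SE, limma adjusted p = 0.139) and its brighter probe by -0.19 (adjusted p = 0.328), both lower on 4 of 4 arrays.

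Several further small subunit genes, chosen after their values were seen, stood on the same side without passing. Mrps11 differed by -0.46, Mrps5 by -0.38, Mrps15 by -0.28 and Mrps18a by -0.28 (limma adjusted p between 0.141 and 0.240). At each of these the 3xTg samples lay below the WT samples. Mrps26 differed by -0.31 ± 0.09 (SE, adjusted p = 0.160) at one probe and by 0.0020 at the other. On the higher side stood Mrps14, a counterpart of a bacterial small subunit protein. Its brightest probe measured 11.04, 11.83, 11.24 and 11.57 in 3xTg and 10.83, 11.53, 11.22 and 11.11 in WT, with overlapping groups. It was higher on 4 of 4 arrays, by 0.25 ± 0.11 (SE, limma adjusted p = 0.276), and by 0.10 at its other probe. The 30 small subunit probes with an unadjusted p of 0.05 or more lay between -0.29 and 0.22.

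**Figure D2:**
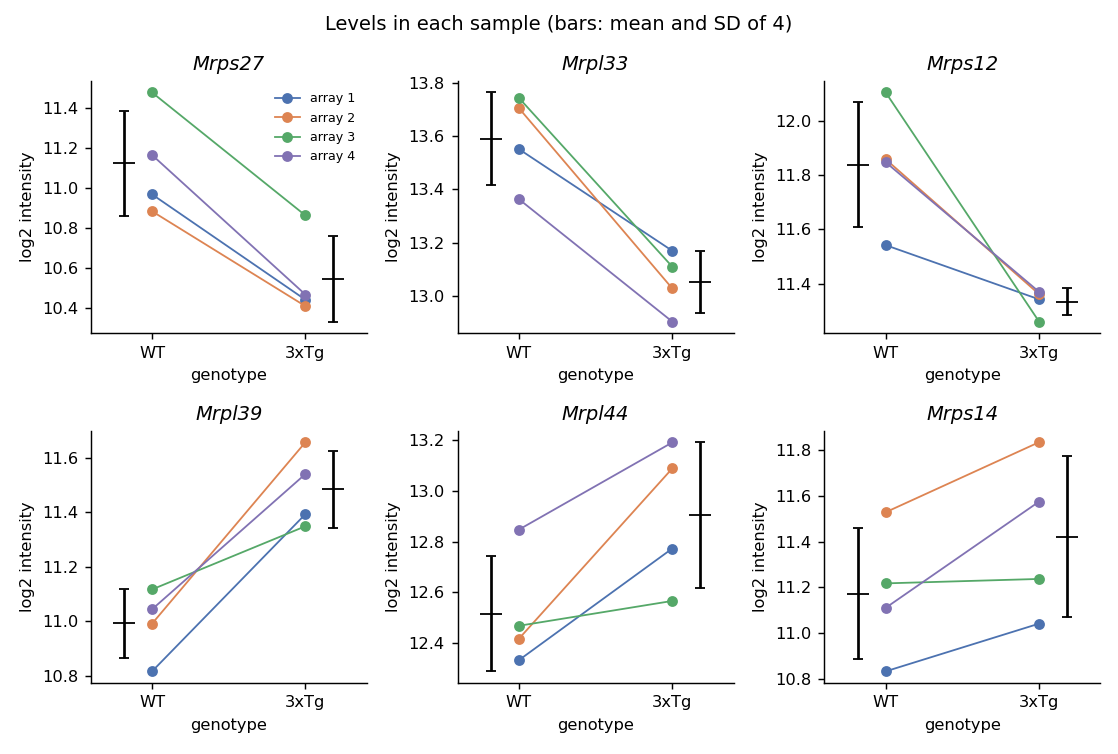
Log2 intensity (vertical axes, each panel with its own range) of 6 members in WT and 3xTg samples, with a line joining the samples of each array and bars for the mean and SD of 4 samples. Mrps27, Mrpl33 and Mrps12 were lower and Mrpl39, Mrpl44 and Mrps14 higher in 3xTg on 4 of 4 arrays, and of these Mrps27 passed over all probes.

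In the large subunit 0 probes passed over all probes (limma; 3 higher and 8 lower at an unadjusted p under 0.05, and 0 to 3 passed under other settings). Mrpl33, a small protein with a bacterial counterpart, had the smallest p. It measured 13.17, 13.03, 13.11 and 12.91 in 3xTg and 13.55, 13.70, 13.74 and 13.36 in WT. The groups did not overlap, and 3xTg was lower on each array, by 0.38 to 0.68. The difference was -0.54 ± 0.10 (SE; 1.45-fold lower) with a limma adjusted p of 0.0545, which ranged from 0.0111 to 0.414 over the alternative settings. It passed after centring on sample medians, after loess within arrays, with trend and robust moderation, with the array as a random block and with probes averaged per gene.

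Further members of the large subunit lay below 0 without passing, and those named next have bacterial counterparts unless stated. Mrpl14, which lies at the interface with the small subunit, measured 10.51, 10.54, 10.77 and 10.26 in 3xTg and 10.70, 11.04, 11.29 and 10.88 in WT, where the highest 3xTg sample exceeded the lowest WT sample. Its difference was -0.46 ± 0.11 (SE, limma adjusted p = 0.0974). Mrpl17, near the exit tunnel, differed by -0.38 ± 0.11 (SE, limma adjusted p = 0.147), with 10.67 to 10.97 in 3xTg and 10.89 to 11.52 in WT. For Mrpl15 the dimmer probe differed by -0.37 ± 0.11 (SE, limma adjusted p = 0.150) and the brighter by -0.10. Chosen after their values were seen, Mrpl12 (-0.35), whose protein forms the stalk and also binds the mitochondrial RNA polymerase, Mrpl23 (-0.32) and Mrpl30 (-0.28 at its brighter probe and 0.02 at the other) had adjusted p between 0.155 and 0.197. Mrpl43, a protein found in mitochondria only, was chosen in the same way. Its brighter probe differed by -0.29 without overlap of the groups (limma adjusted p = 0.229), and its other probe by 0.09.

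The members furthest above 0 were both specific to mitochondria. Mrpl39 measured 11.39, 11.66, 11.35 and 11.54 in 3xTg and 10.82, 10.99, 11.12 and 11.04 in WT at its brighter probe (A_55_P2154595). No 3xTg sample lay below a WT sample, and no other member probe separated the groups in this direction. The difference of Mrpl39 was 0.49 ± 0.11 (SE; 1.41-fold higher) with a limma adjusted p of 0.0825; a second probe (A_55_P2090660) was also higher on 4 of 4 arrays, by 0.25 ± 0.09 (SE, adjusted p = 0.215). Mrpl44, which carries a ribonuclease III-like fold and is altered in a human cardiomyopathy, measured 12.77, 13.09, 12.57 and 13.19 in 3xTg and 12.33, 12.42, 12.47 and 12.85 in WT. Its groups overlapped, the difference being 0.39 ± 0.12 (SE, limma adjusted p = 0.159). Mrpl4 differed by 0.22 at one probe and by -0.17 at its brighter probe (adjusted p = 0.321 and 0.425). The 56 large subunit probes with an unadjusted p of 0.05 or more lay between -0.29 and 0.22.

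**Figure D3:**
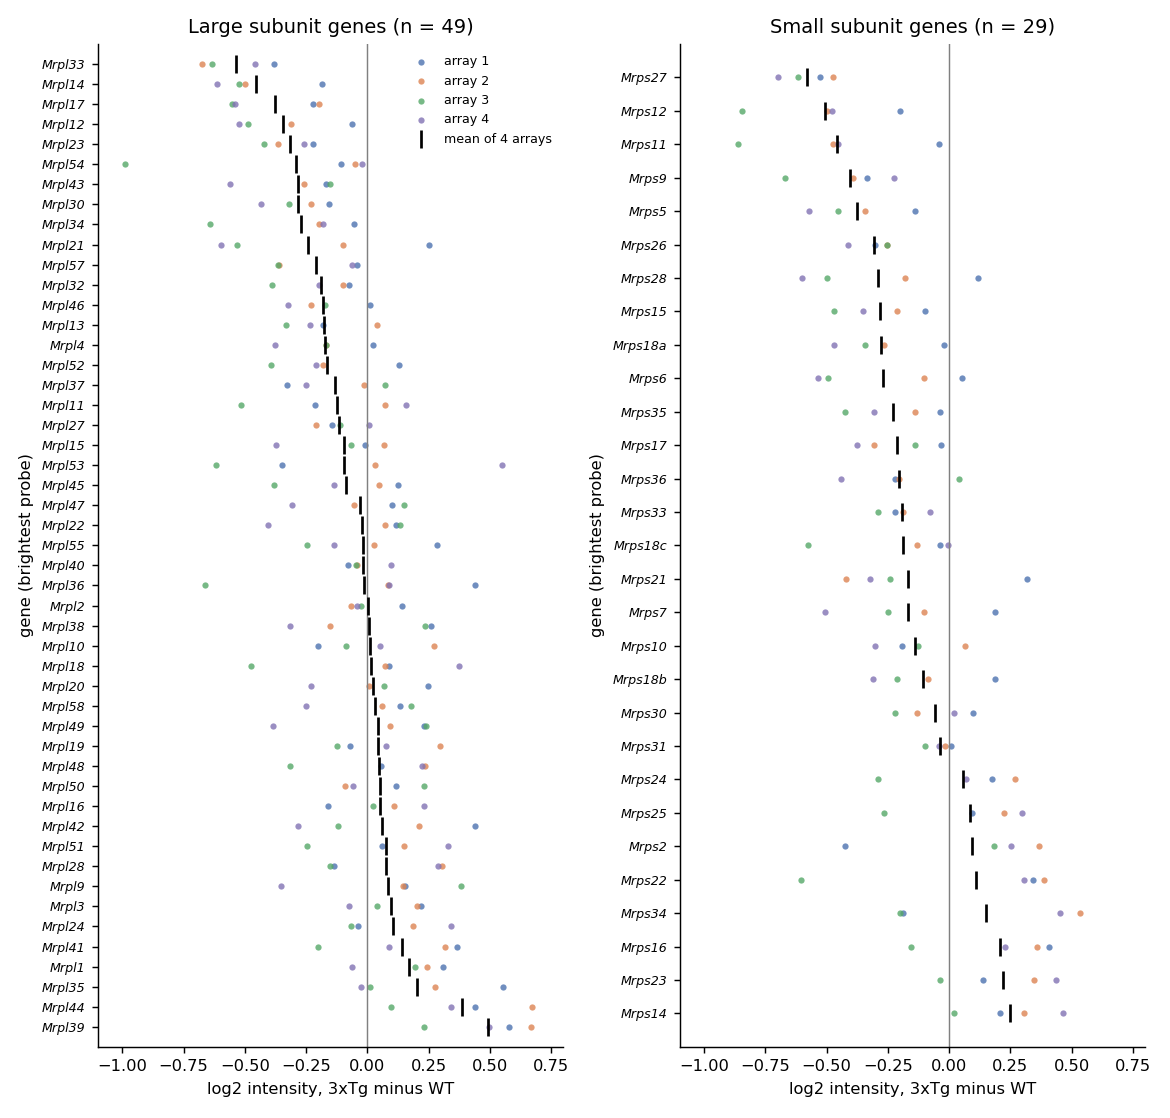
Log2 difference, 3xTg minus WT (horizontal axes), of each large (left, 49) and small (right, 29) subunit gene at its brightest probe, with a coloured point for each array and a black bar for the mean of 4. Large subunit genes ran from -0.54 (Mrpl33) to 0.49 (Mrpl39) and small subunit genes from -0.58 (Mrps27) to 0.25 (Mrps14), and most genes had points on both sides of 0.

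Of the 107 probes 45 lay within 0.1 of 0 and 70 within 0.2, and the share of all probes within these limits was not counted. At the brightest probe of each gene the members' quartiles were -0.24 and 0.05. Over all named genes they were -0.12 and 0.14. Members were also picked by the brightness of their probes, an order of probes and not of transcripts. The large subunit genes with the 3 brightest probes, Mrpl51, Mrpl24 and Mrpl37, differed by 0.07, 0.11 and -0.13, and those with the 3 dimmest, Mrpl36, Mrpl45 and Mrpl35, by -0.01, -0.09 and 0.20. In the small subunit the genes with the brightest probes, Mrps33, Mrps31 and Mrps26, differed by -0.19, -0.04 and -0.31 and those with the dimmest, Mrps28, Mrps24 and Mrps16, by -0.29, 0.06 and 0.21. Across the 107 probes the correlation of mean level with difference was -0.058, a description over probes that share the same samples.

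For most genes with several probes, the probes lay on the same side of 0. No range between probes of different genes is given for comparison. Of the 26 genes with several probes, 8 had probes on both sides of 0, and the largest difference between probes of a gene was 0.39, for Mrpl4. Mrpl43 ranged from -0.29 to 0.09 and Mrps23 from -0.14 to 0.22. The median range between probes of a gene was 0.12, close to the median SE of a single probe.

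By origin, small subunit genes with a bacterial counterpart had the lowest median, at -0.20 over 18 genes with 14 below 0. Small subunit genes found in mitochondria only had -0.05 over 10 genes with 6 below 0. In the large subunit the medians were -0.06 over 28 genes with counterparts and -0.02 over 21 found in mitochondria only. This grouping was made after the values were seen. Counting Mrps18a and Mrps30 with the large subunit and leaving out Mrps36 gave medians of -0.18 for the small and -0.02 for the large subunit. Genes with a promoter window were also grouped by motif, using the window of lowest chromosome coordinate. On the minus strand, a gene with several windows is thus counted by its furthest downstream window. The 14 genes with an NRF1 match had a median of -0.20 and the 55 without one -0.03. For the ETS-type motif these were -0.17 over 26 genes and -0.02 over 43. For YY1 they were -0.15 over 12 and -0.06 over 57, and for TATAAA -0.06 over 4 and -0.09 over 65. These differences were not tested, and such medians over all genes are not given.

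The arrays differed in how far the subunits stood from 0. The small subunit median was -0.03, -0.13, -0.27 and -0.31 on the arrays of replicates 1 to 4, with 16, 20, 26 and 20 of 29 genes below 0. The large subunit median was 0.02, 0.03, -0.15 and -0.14. Both medians were lower on the arrays of replicates 3 and 4 than on those of replicates 1 and 2, and the small subunit median was below that of the large subunit on each array. Averaged over genes, small subunit levels were 11.80, 11.96, 11.81 and 11.92 in 3xTg and 11.83, 12.04, 12.13 and 12.09 in WT, and the groups overlapped. Large subunit averages were 12.08, 12.20, 12.11 and 12.11 in 3xTg and 12.03, 12.19, 12.30 and 12.22 in WT. Over the 107 probes the differences of any 2 arrays correlated at 0.22 to 0.70, against 0.14 to 0.63 over all probes, which share dye and probe effects.

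**Figure D4:**
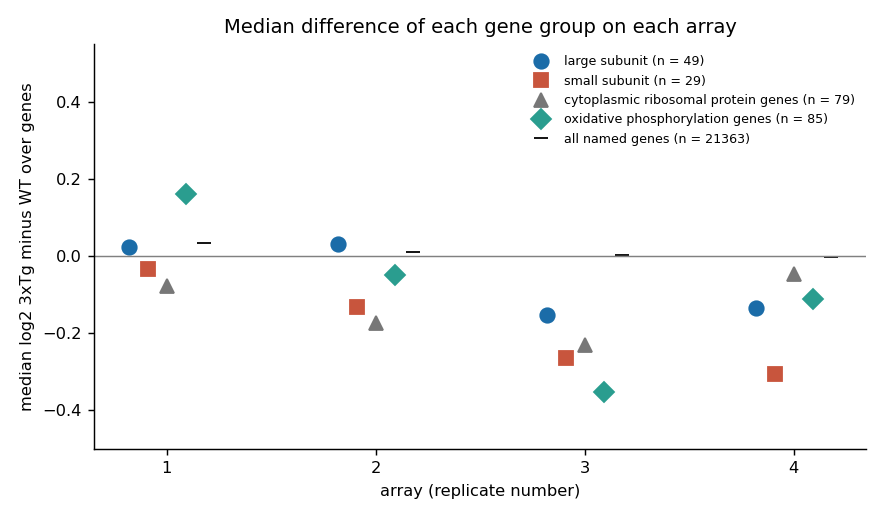
Median log2 difference, 3xTg minus WT (vertical axis), of each gene group on the array of each replicate number (horizontal axis), with 1 symbol per group. The small subunit (squares) lay below the large subunit (circles) on all 4 arrays, and both were lowest on arrays 3 and 4, while all named genes (dashes) lay between -0.0023 and 0.03.

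Variation between arrays was greatest for a few members. In the large subunit Mrpl53, Mrpl54 and Mrpl36 had the largest SD of the array differences, at 0.51, 0.47 and 0.46. Mrpl54 differed by -0.11, -0.05, -0.99 and -0.02, so a single array set its mean of -0.29. Mrpl53 differed by -0.35, 0.03, -0.62 and 0.55 and Mrpl36 by 0.44, 0.08, -0.66 and 0.09. In the small subunit these were Mrps22 (SD 0.48), one probe of Mrps18b (0.42) and Mrps34 (0.40). Mrps22 differed by 0.34, 0.39, -0.60 and 0.30, and again replicate 3 was the low one. The median SD over members was 0.19, against 0.23 over all probes.

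Cell type marker lists differed between arrays as well. Striatal projection neuron markers had medians of -2.18, -1.72, 0.20 and -0.34 on the 4 arrays, with all 11 measured genes below 0 on average. Oligodendrocyte and myelin markers (11 genes, averaging 12.55 to 13.22 in 3xTg and 12.29 to 12.80 in WT) had medians of -0.23, 0.63, 0.61 and 0.57. Proliferation markers (11 genes, averaging 8.93 to 9.30 in 3xTg and 9.21 to 9.38 in WT) had medians of -0.16, -0.33, -0.18 and -0.02. Septal and cholinergic markers (8 genes, averaging 11.17 to 11.94 and 10.75 to 11.36) had 1.13, 0.96, 0.46 and 0.01. Astrocyte and neural stem cell markers (10 genes, 8 above 0) had medians of 0.15, 0.28, 0.08 and 0.10, and ependymal markers (10 genes) had -0.40, -0.13, 0.49 and -0.23. The first list thus lay above 0 on all 4 arrays and the second on the array of replicate 3 alone. Microglial markers (9 genes) had medians of -0.21, -0.31, 0.02 and 0.04. Of these the Itgam probe stood at the sample's highest intensity in all 8 samples, so its difference was held near 0. Transit-amplifying cell and neuroblast markers (10 genes) had -0.05, -0.01, -0.18 and -0.02. Choroid plexus markers (6 genes) had 0.12, 0.03, 0.29 and 0.04, and endothelial markers (8 genes) -0.12, -0.04, 0.12 and 0.02. The part of these lists in the differences of the members was not tested.

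Gene groups with related work are given for comparison. Cytoplasmic ribosomal protein genes, which translate nuclear messengers, had a median of -0.15 over 79 genes, with 62 below 0 and array medians of -0.08, -0.17, -0.23 and -0.05. Oxidative phosphorylation genes, whose complexes take up the products of the mitochondrial ribosome, had a median of -0.07 over 85 genes and array medians of 0.16, -0.05, -0.35 and -0.11. Whether either group differs from the mitochondrial ribosomal genes was not tested.

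The rest of the mitochondrial translation pathway was examined in 6 lists, at the brightest probe of each gene. None of their members passed (limma, over all probes, where 0.562% of named genes passed as higher and 0.623% as lower, 1.18% in all), with 4 higher and 10 lower at an unadjusted p under 0.05, where 1869 and 2003 of all 21363 named genes were. Translation factors had a median of -0.01 over 15 genes, with Tsfm, an elongation factor, at -0.40 and Gfm1, another, at 0.21 (adjusted p = 0.234 and 0.347). Genes of ribosome assembly and RNA modification had a median of 0.0047 over 24 genes. Among these Mrm2, a methyltransferase of the large subunit RNA, differed by -0.54 ± 0.11 (SE, limma adjusted p = 0.0693) without overlap of the groups, and the pseudouridine synthase gene Trub2 by -0.36 (adjusted p = 0.107). The enzymes that charge mitochondrial transfer RNAs had a median of -0.07 over 19 genes, with Gatb, an amidotransferase subunit, at 0.45 and the alanyl enzyme Aars2 at -0.50 (adjusted p = 0.0706 and 0.10).

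Genes of mitochondrial DNA maintenance and transcription had a median of -0.14 over 12 genes, with Mterf1a, a transcription terminator, at 0.34 and the helicase Twnk at -0.33 (limma adjusted p = 0.150 and 0.218). Regulators of mitochondrial biogenesis had a median of -0.03 over 9 genes. Of these the nuclear receptor gene Esrra differed by -0.34 and Nrf1, which encodes the factor of the NRF1 palindrome, by -0.22 (limma adjusted p = 0.266 and 0.480). The 4 measured ribosome subunits whose symbols lie outside the Mrpl and Mrps series had a median of -0.08, with Chchd1 at -0.15 and Gadd45gip1 at 0.17.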

How the data were processed

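RNA of 8 samples (4 per genotype) was measured on 4 arrays of 2 colours. The deposited table holds log2 intensities of 32684 probes, normalized by the authors; the log2 scale was taken from the values, and limma was used, per the submitters' processing notes. For background correction, normalization and filtering, the method is not given in the sources used here. Symbols came from the platform annotation (29769 probes with 1, 2915 with none), and all 107 member probes matched RefSeq (GRCm38.p6) by Entrez identifier. limma 3.58.1 in R 4.3.3 fitted genotype with the array as a fixed effect and default moderation, two-sided, adjusted over all probes. The labels put both samples of a replicate number on 1 array; their deviations from group means correlated at 0.54 to 0.82, against at most 0.18 between arrays. Simulated data in which 200 probes were changed served to test the fit. The number of arrays limits precision. The p-values rest on the moderated spread of the within-array differences over the 4 arrays, and not on the spread between samples of a genotype.

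Members and lists were chosen with earlier results of these data known. Genes were named by rule: members that passed, in each subunit up to 4 of smallest p in each direction with 1 sign on all arrays, the 3 brightest, dimmest and most variable, genes with probes over 0.7 apart (0 found), and 2 per pathway list. Alternatives were no array term, a random array term, median centring, quantile and loess (span 0.3) normalization, trend and robust moderation, leaving out the dimmest 25% of probes or each array, and averaging probes per gene.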

Additional observations from a re-analysis of the deposited data

Results flagged for a closer look

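Of 135 sets of 4 values tested for a sample far from the others, 8 were flagged, where chance gives about 5% of sets. The array difference of Mrps22 was -0.60 on the array of replicate 3, far from its other 3 arrays, and that of Mrpl54 was -0.99 on the same array. Mrpl53 measured 10.96 in WT replicate 1, well below the other WT samples, although the 3xTg sample of that array (10.61) was also the lowest of its group. Mrps27 measured 10.86 in 3xTg replicate 3, above the other 3xTg samples, although the WT sample of that array was also the highest of its group. The median difference of mitochondrial translation factors was -0.12 and that of ribosome assembly and RNA modification genes -0.18 on the array of replicate 3. On the array of replicate 4 the median of mitochondrial DNA maintenance and transcription genes was 0.04 and that of the regulators of mitochondrial biogenesis -0.27, each apart from the other arrays.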

How the results depend on the processing

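Across the alternatives run the small subunit median lay between -0.24 and -0.13 and the large subunit median between -0.07 and -0.01. Changing the array term cannot move these medians, because each array holds 1 sample of each genotype. Changing the moderation cannot move them either, because it alters the SE and not the fitted difference. Their narrow range is therefore partly fixed by the design and the fit. Calls depended on the settings. The probes that passed over the whole array numbered 400, against 78 with no replicate block (no array term), 1309 with a random array term, 247 after quantile normalization, 905 with trend and robust moderation, and 31 to 414 with 1 array left out. In the small subunit 1 probe (Mrps27) passed as fitted, 0 without the replicate block, 0 after quantile normalization, 0 with any 1 array left out and 2 with a random array term. In the large subunit 0 passed as fitted and 0 without the replicate block or with 1 array left out, 3 with a random array term, 2 with trend and robust moderation, and 1 each after median centring, after loess and with probes averaged per gene. Of 360 refitted values of the 30 named member probes, 9 newly passed, 6 no longer passed (all Mrps27) and 10 changed sign while passing in neither fit. The cause of these changes was not tested. Placing Mrps18a and Mrps30 with the large subunit was chosen after seeing the data. Signal over background is not known, so no limit of detection can be given.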

Other observations

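The neighbours of the leading members on the chromosome, a check chosen after the data were seen, are given as values. Mrps27 lies on chromosome 13, and of the 5 measured genes on each side of it none passed (limma, over all probes). Their differences ran from -0.25 to 0.28 around a median of -0.05, with Ptcd2, which encodes another pentatricopeptide repeat protein, at -0.19 next to it. Mrpl33 on chromosome 5 had 10 such neighbours between -0.49 (Slc4a1ap, directly beside it, limma adjusted p = 0.101) and 0.13, and none passed. Mrpl39 on chromosome 16 has Gabpa, whose product binds the ETS-type motif, and App among its neighbours, at -0.03 and 0.18. Of its 10 neighbours 1 passed, Chodl, which rose by 1.01 (limma adjusted p = 0.0420). Mrpl44 on chromosome 1 had 10 neighbours from -0.47 to 0.40 around a median of 0.19, with 3 below 0, and none passed. Among them Wdfy1, Cul3 and Dock10 differed by 0.385, 0.397 and 0.388, where Mrpl44 differed by 0.387. Of the 10 neighbours of Mrps9, 1 passed, Tgfbrap1, at 0.62 (limma adjusted p = 0.0379). Around Mrpl14, Mrpl15, Mrpl17, Mrpl4, Mrps14 and Mrps33 none passed. Mrps12 on chromosome 7 lies beside Sars2, the mitochondrial seryl-tRNA synthetase gene, which differed by -0.07 (limma adjusted p = 0.856) where Mrps12 differed by -0.51; 3 genes away Sirt2, a deacetylase gene, fell by 0.79 (adjusted p = 0.0247).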
